A study of Sus scrofa with 23 samples.

Results

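The genes of the mitochondrial respiratory chain and of the ATP synthase were followed in pig articular cartilage with and without osteochondrosis. The members were the probe sets of the Affymetrix Porcine Genome Array whose annotation gave exactly 1 gene symbol, and whose symbol began with NDUFA, NDUFB, NDUFC, NDUFS, NDUFV, UQCR, COX4 to COX8 or ATP5, or was SDHA, SDHB, SDHC, SDHD, CYC1 or CYCS. This gave 81 of the 24123 probe sets, for 64 of the 6765 genes that had a probe set with 1 symbol. After a filter on low levels, 75 of the 81 probe sets were tested and 6 were not, and each of the 64 genes kept at least 1 probe set. A gene is represented below by its brightest tested probe set, and 14 of the genes had more than 1 probe set. A further 4 probe sets with several annotation entries were left out. CYC1 and the COX4 genes were not analysed here.

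The respiratory chain sits in the inner mitochondrial membrane. Complex I (NADH dehydrogenase) and complex II (succinate dehydrogenase) pass electrons to ubiquinone, complex III (the cytochrome bc1 complex) passes them to cytochrome c, and complex IV (cytochrome c oxidase) passes them to oxygen. Complexes I, III and IV pump protons, and complex V, the ATP synthase, uses the returning protons to make ATP. Mature articular cartilage has no blood vessels of its own and little oxygen, and its chondrocytes make much of their ATP by glycolysis. The labels here give no age. The 7 endothelial markers tested averaged 8.23 in the median affected humeral sample and 5.43 in the median affected femoral level. By symbol, 33 of the genes encode complex I subunits, 3 encode assembly factors of complex I (NDUFAF1, NDUFAF2 and NDUFAF3), 4 encode complex II, 2 encode complex III (UQCR10 and UQCRB), 7 encode complex IV and 13 encode complex V. The remaining 2 are CYCS, which encodes cytochrome c, and ATP5S, which encodes coupling factor B of the ATP synthase. NDUFA4 is kept here with complex I by its symbol, although its protein is now assigned to cytochrome c oxidase.

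The animals were Duroc x Pietrain crossbred pigs, and cartilage was taken from the medial humeral condyle of the elbow or the medial condyle of the femur. The 4 groups were humerus non-affected (6 arrays), humerus affected (8 arrays), femur non-affected (5 arrays) and femur affected (4 arrays) and the labels give no treatment or age for any of them. The series describes affected and non-affected sib pairs, but the labels neither mark the sibs nor state that each array is a different animal. The p-values therefore rest on the spread among arrays, part of which may be technical. A pair of humerus affected arrays (5 and 6) and a pair of femur non-affected arrays (1 and 2) were nearly identical, differing over all probe sets with an SD of 0.1075 and 0.2138 against 0.3406 for the next closest pair, and each pair was averaged as 1 sample. This left 6, 7, 4 and 4 samples, and levels are on the deposited log2 scale, where a difference of 1 is a doubling.

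None of the 6 chondrocyte markers measured was at the floor of 4 in any sample. ACAN (the cartilage proteoglycan aggrecan) lay between 13.07 and 14.02, COMP between 13.38 and 13.98, COL2A1 between 10.51 and 12.58, and SOX9, the transcription factor of the lineage, between 7.40 and 10.66. The bacterial control transcripts bioB and bioC, which are added at hybridisation, read 10.23 to 10.49 in the 8 femoral samples and 8.62 to 9.05 in the 13 humeral samples, and all 15 of their probe sets had every femoral above every humeral sample. For the hybridisation controls bioD and cre, 8 of 12 probe sets did so. The labelling controls dap, lys, phe and thr averaged 9.01 in the femur and 9.02 in the humerus, with 1 of 39 probe sets so separated. Array medians ran from 6.05 to 6.17 in the femur and from 6.18 to 6.33 in the humerus, and the share of probe sets at the floor from 3.07% to 4.33% and from 1.25% to 2.24%. The log2 level of the actin 3′ minus that of its 5′ probe set, a measure of RNA integrity, averaged 2.78 in the femur (2.43 to 3.07) and 3.21 in the humerus (2.63 to 3.55). Joint and array handling therefore cannot be told apart in the comparisons of femur with humerus, while the comparisons of affected with non-affected cartilage lie within a joint. Because whole tissue was measured, fewer cells of a type and less RNA per cell cannot be told apart.

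Averaged over the 64 genes, levels were lowest in affected femur and highest in affected humerus. The 4 affected femoral samples averaged 9.41 to 9.64 and the 4 non-affected ones 9.64 to 9.83. In the humerus, the lowest, median and highest sample means were 9.65, 9.92 and 9.96 without disease and 9.86, 9.96 and 10.16 with it. Within a group these sample means varied with a pooled SD of 0.10, so the group means (9.56, 9.75, 9.86 and 9.99 in the order affected femur, non-affected femur, non-affected humerus, affected humerus) differ by 1 to 2 such SDs from one to the next. The 2 femoral groups met at 9.64 and the humeral groups overlapped. The step from non-affected femur to non-affected humerus holds for the deposited scaling only. The members' median difference of non-affected femur minus humerus, -0.10 as deposited, was 0.08 with arrays centred on their medians and 0.04 after quantile normalization.

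**Figure D1:**
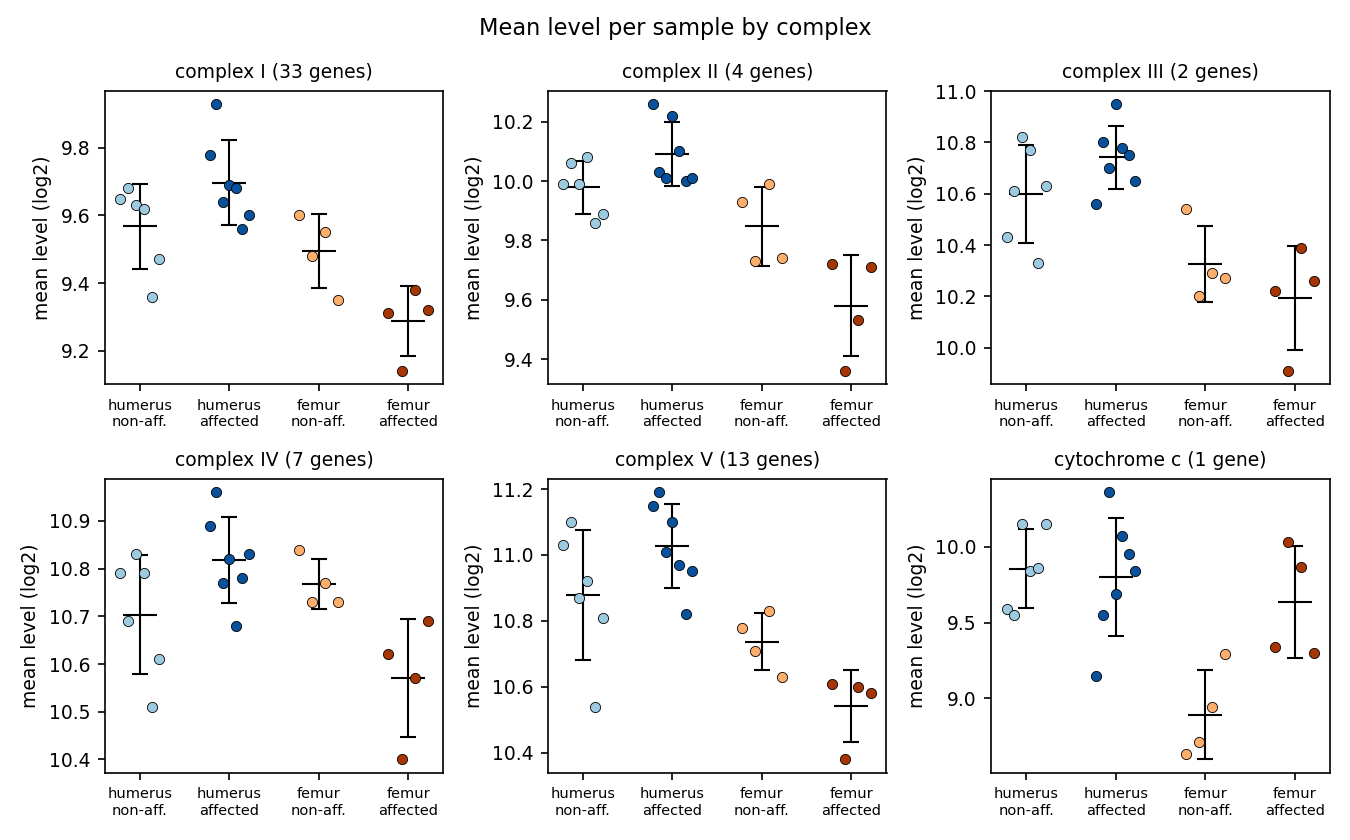
Mean log2 level over the genes of each complex (vertical axis) in every sample of the 4 groups (horizontal axis); points are samples, the bar is the group mean and the whiskers 1 SD. Affected femur lies lowest for complexes I, II, III, IV and V, while CYCS is lowest in non-affected femur, with a group mean of 8.89.

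The first question was how the respiratory genes differ between affected and non-affected cartilage at the femur. Of the 64 genes, 57 had a lower mean in affected femur and 7 a higher one, with a median difference of -0.22 on the log2 scale, and the range ran from -0.60 for NDUFB7 to 0.74 for CYCS. Over all 5905 genes tested, 58.3% were lower and the median was -0.06. No member passed the test (limma with Benjamini-Hochberg adjustment over 16799 probe sets, adjusted p under 0.05), where 1.03% of all genes did. The smallest adjusted p among the members was 0.0841, and 18 of them had an unadjusted p under 0.05, against 19.7% of all genes.

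Complex I had 30 of its 33 genes lower in affected femur, with a median of -0.20, and 7 had every affected sample below every non-affected sample. Those 7 were NDUFA13, NDUFA2, NDUFB10, NDUFB4, NDUFB7, NDUFS6 and NDUFV2. Over all members there were 15 such genes, against 7.1% of all genes tested. NDUFB4, an accessory subunit of the membrane arm, read 10.97, 10.89, 10.93 and 10.77 in non-affected femur and 10.74, 10.02, 10.27 and 10.64 in affected femur. The groups did not overlap, but affected samples 1 and 4 lay just under the lowest non-affected one, and the difference was -0.47 ± 0.14 (SE; n = 4 and 4; limma adjusted p = 0.0944). Without affected sample 1 the difference was -0.58 and the limma adjusted p 0.039. In that fit 2.68% of all probe sets were called, against 1.14% with all samples.

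NDUFA13, also known as GRIM-19, read 10.77, 10.99, 10.94 and 10.76 in non-affected femur and 10.51, 10.28, 10.44 and 10.70 in affected femur. Every affected value was below every non-affected one, and the difference was -0.38 ± 0.12 (limma adjusted p = 0.104). NDUFB7, an accessory subunit on the outer face of the membrane arm, had the lowest difference of the set, -0.60 ± 0.21 (adjusted p = 0.132), from 8.39, 8.18, 8.58 and 7.98 to 7.70, 7.5, 7.63 and 7.89. For NDUFB7 non-affected sample 5, at 7.98, lay close to the affected group. The flavin-binding subunit NDUFV1, which takes the electrons from NADH, differed by -0.39 ± 0.17 (adjusted p = 0.205), with affected samples at 7.88, 7.70, 7.97 and 8.0 and one non-affected sample at 7.90 among them.

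Of the core subunits, NDUFS1 and NDUFS7, which hold iron-sulphur clusters, differed by -0.14 and -0.27, and NDUFS3 by -0.31, each with an adjusted p of at least 0.253. NDUFA5, an accessory subunit of the matrix arm, stood out from the other complex I genes. It read 6.29, 5.75, 5.10 and 5.05 in non-affected femur and 6.0, 6.62, 6.75 and 5.67 in affected femur, so that its mean was higher by 0.71 ± 0.30 with overlapping groups (limma adjusted p = 0.197). NDUFC1 (0.12) and NDUFB2 (0.07) were the other complex I genes with a higher mean. Among the assembly factors, NDUFAF3 was lower without overlap, at -0.30 ± 0.11 (adjusted p = 0.141), while NDUFAF1 and NDUFAF2 differed by -0.08 and -0.27 with overlap.

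All 4 complex II genes had a lower mean in affected femur, between -0.31 and -0.23. SDHD, which with SDHC anchors the enzyme in the membrane, read 10.80, 10.62, 10.74 and 10.53 in non-affected and 10.65, 10.09, 10.36 and 10.49 in affected femur, a difference of -0.27 ± 0.12 (limma adjusted p = 0.198). The groups overlapped through affected sample 1. SDHC differed by -0.31, SDHB (the iron-sulphur subunit) by -0.25 and SDHA (the flavoprotein) by -0.23, also with overlap. In complex III, UQCR10 read 10.95, 10.83, 11.02 and 10.64 against 10.53, 10.01, 10.49 and 10.79, a difference of -0.40 ± 0.16 (adjusted p = 0.181), with affected sample 4 inside the non-affected range. UQCRB differed the other way, by 0.14 ± 0.20 (adjusted p = 0.72).

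CYCS encodes cytochrome c, the mobile carrier between complexes III and IV that also triggers apoptosis when it leaks into the cytosol. It read 8.63, 8.71, 8.94 and 9.29 in non-affected femur and 9.34, 10.03, 9.87 and 9.30 in affected femur. Every affected sample was above every non-affected one, though affected samples 1 and 4 only barely, and the difference was 0.74 ± 0.23 (limma adjusted p = 0.101). CYCS and ATP5J were the 2 members with affected femur above without overlap, against 1.71% of all genes.

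Of the complex IV genes, 6 had lower means in affected femur and COX8H, the heart and muscle form of subunit 8, differed by 0.01. COX7A1, the heart and skeletal muscle form of subunit 7A, read 9.63, 9.73, 9.61 and 9.45 in non-affected and 9.10, 8.79, 9.23 and 9.20 in affected femur. The groups were separated by a clear gap, and the difference was -0.53 ± 0.16 (limma adjusted p = 0.0935). COX7A2, the widely expressed form of the same subunit, differed by -0.18 ± 0.16 with overlap. COX6A1, the widely expressed form of subunit 6A, differed by -0.25 ± 0.11 (adjusted p = 0.199) without overlap.

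In complex V, 12 of 13 genes had a lower mean in affected femur, with a median of -0.24. Of these, 5 (ATP5B, ATP5E, ATP5F1, ATP5H and ATP5O) had no overlap, against 7.1% of all genes. ATP5B, the catalytic beta subunit, read 11.19, 11.02, 11.36 and 11.00 in non-affected and 10.91, 10.79, 10.92 and 10.76 in affected femur (-0.30 ± 0.16, limma adjusted p = 0.292). ATP5A1, the alpha subunit, differed by -0.15 ± 0.12. The 3 genes for the c-ring subunit, ATP5G1, ATP5G2 and ATP5G3, differed by -0.27, -0.37 and -0.24, none with an adjusted p under 0.255.

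ATP5J was the exception in complex V. It encodes coupling factor 6, a part of the peripheral stalk that holds the catalytic head still. It read 8.11, 7.96, 7.93 and 8.02 in non-affected and 8.37, 8.61, 8.53 and 8.45 in affected femur, with the groups well apart. The difference of 0.48 ± 0.14 had the smallest adjusted p among the members (limma, 0.0841). The other stalk genes ATP5F1, ATP5H and ATP5O differed by -0.30, -0.20 and -0.24.

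The call depended on how the nearly identical arrays were counted. With all 23 arrays as separate samples, 4 members passed in the femur: ATP5J (0.46, adjusted p = 0.0463), CYCS (0.80, 0.0394), COX7A1 (-0.53, 0.0435) and NDUFB4 (-0.48, 0.0371). In that fit 3.7% of all probe sets passed, against 1.14% with the pairs averaged.

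**Figure D2:**
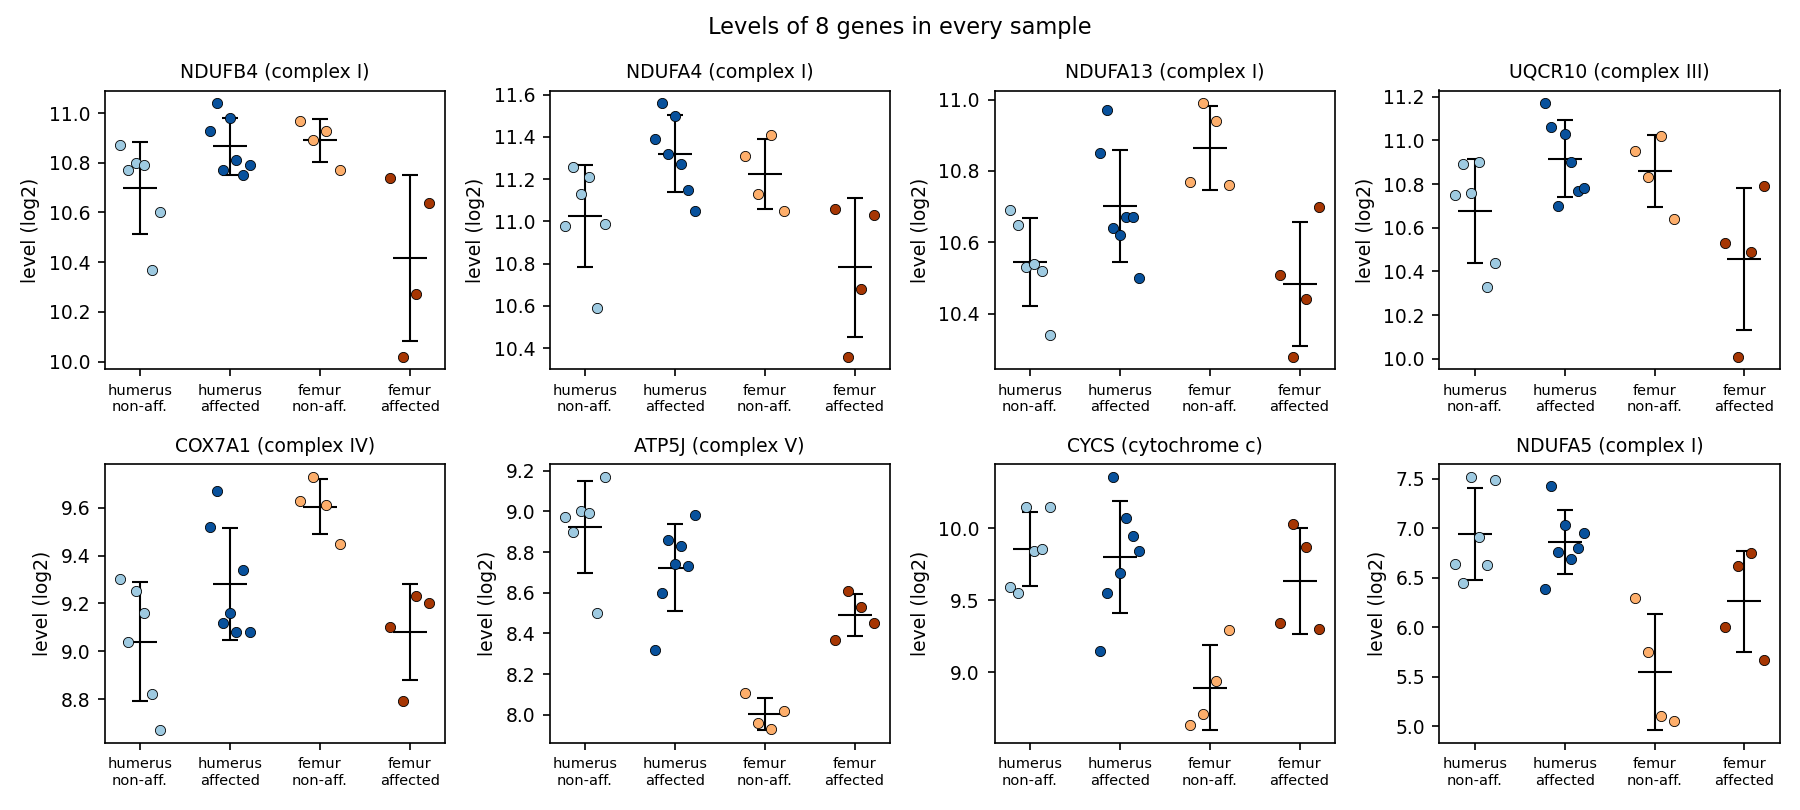
Log2 levels (vertical axis) of 8 genes in every sample of the 4 groups (horizontal axis); points are samples, the bar is the group mean and the whiskers 1 SD. ATP5J, CYCS and NDUFA5 are lowest in non-affected femur, whereas NDUFB4, NDUFA4, UQCR10 and NDUFA13 have their lowest mean in affected femur.

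At the humerus the same comparison gave means on the other side. Of the 64 genes, 55 had a higher mean in affected humerus and 9 a lower one, with a median of 0.14 and a range from -0.20 to 0.30, while 48.4% of all genes were higher and their median was -0.01. No member was called, nor was any of the 16799 probe sets (limma, 0% called, smallest adjusted p among members 0.759), and 2 members had an unadjusted p under 0.05, against 6.49% of all genes. All of the members' groups overlapped in the humerus.

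NDUFA4 had the smallest p there. Its lowest, median and highest levels were 10.59, 11.06 and 11.26 in non-affected and 11.05, 11.32 and 11.56 in affected humerus, a difference of 0.29 ± 0.13 (SE; n = 6 and 7; limma adjusted p = 0.759). Most affected samples lay in the upper part of the non-affected range or above it. NDUFA2, an accessory subunit of the matrix arm, ran from 9.90 over 10.21 to 10.54 in non-affected and from 10.20 over 10.45 to 11.04 in affected humerus, also a difference of 0.29 (adjusted p = 0.759).

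NDUFS5 differed by 0.29 ± 0.15, UQCR10 by 0.24 ± 0.13 and COX7A1 by 0.24 ± 0.12 (limma adjusted p = 0.768 for each). In the ATP synthase, ATP5E differed by 0.16 ± 0.08 and ATP5H by 0.17 ± 0.09 (adjusted p = 0.767 for each), and 12 of the 13 complex V genes had a higher mean, ATP5J being the exception at -0.20 ± 0.11. All 4 complex II genes had a higher mean, between 0.04 and 0.17, with SDHC the highest (adjusted p = 0.804). CYCS differed by -0.05 ± 0.18.

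Side by side, 53 of the 64 genes had a lower mean in affected femur and a higher mean in affected humerus, a pattern shown by 33.6% of all genes. The opposite pattern was seen for 5 genes, among them ATP5J, CYCS and NDUFA5, while 2 genes were higher at both joints and 4 lower at both. The difference between the femoral and the humeral status difference (the interaction) was tested in the fit of the 4 groups. It was below 0 for 57 genes with a median of -0.37, against a median of -0.05 and 54.7% below 0 for all genes. No member was called (limma, smallest adjusted p 0.0999, against 0.339% of all genes called), and 31 members had an unadjusted p under 0.05, where 20.2% of all genes did.

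The members with the smallest interaction p were ATP5J at 0.68 ± 0.18 (limma adjusted p = 0.0999), COX7A1 at -0.76 ± 0.20 (0.101), NDUFA13 at -0.54 ± 0.15 (0.111), NDUFB4 at -0.64 ± 0.18 (0.112), NDUFA4 at -0.74 ± 0.21 (0.113) and NDUFA2 at -0.71 ± 0.22 (0.133). In complexes II and III the smallest were SDHD at -0.37 ± 0.15 (0.201) and UQCR10 at -0.64 ± 0.21 (0.146). With 23 arrays counted separately ATP5J (0.65, adjusted p = 0.0497) and COX7A1 (-0.74, 0.0462) passed, where 1.33% of all probe sets did, against 0.268% with the pairs averaged. Fitted over both joints with the joint as a term, affected minus non-affected had a median of -0.00 over the members. No member was called there (limma, 0% of all genes called, smallest adjusted p 0.709) and none had an unadjusted p under 0.05. The smallest p were those of NDUFV3 (-0.18), CYCS (0.25) and NDUFV2 (-0.09).

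**Figure D3:**
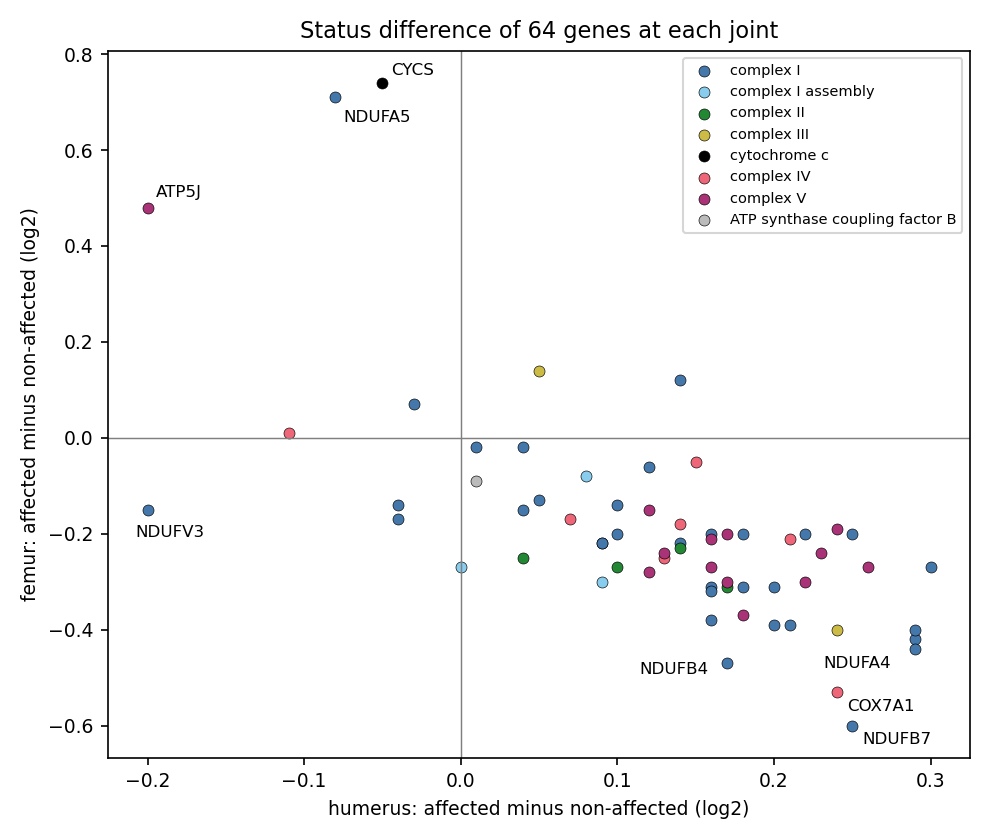
Each point is 1 of the 64 genes, coloured by complex, with its affected minus non-affected log2 difference in the humerus (horizontal axis) and in the femur (vertical axis). Most points, 53 of 64, lie at the lower right, below 0 in the femur and above 0 in the humerus, while ATP5J, CYCS and NDUFA5 lie at the upper left.

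Marker genes of some other cell types had status differences of the same sign as most members, and those of others did not. The 8 macrophage and myeloid markers tested, which include CD163 and the complement gene C1QC, had a median difference of -1.94 in the femur, with 8 of 8 lower and none called. In the humerus their median was 0.87, with 8 of 8 higher and none called. Their mean level was 6.29, 7.03, 8.30 and 7.93 in the non-affected and 6.02, 4.67, 4.75 and 6.57 in the affected femoral samples, and ran from 5.73 to 9.24 in non-affected and from 7.29 to 9.84 in affected humerus. Affected femoral samples 2 and 3 were the lowest of all, with AIF1, FCER1G and TYROBP each reaching the floor of 4 in at least 1 sample of the series.

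The 7 endothelial markers had a median of -0.77 in the femur and 0.90 in the humerus. The 6 chondrocyte markers had the opposite order, with 6 of 6 higher in affected femur (median 0.49) and 6 of 6 lower in affected humerus (median -0.17), none called. The list mean of the chondrocyte markers ran from 11.19 to 11.69 in non-affected femur and from 11.75 to 12.34 in affected femur. Osteoclast markers had medians of -0.32 in the femur and 1.05 in the humerus, and fibroblast and synovium markers -0.56 and 0.03. The medians were above 0 at both joints for osteoblast (0.40 and 0.40), neutrophil (0.18 and 1.89), erythroid (0.50 and 0.48), adipocyte (0.18 and 0.15) and skeletal muscle markers (0.05 and 0.27), and no marker of any list was called for status. The part of these cell types in the members' differences was not tested.

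The second question was how the joints differ. In non-affected cartilage 20 of the 64 genes passed the test between femur and humerus, against 35% of all genes, and 7 were higher and 13 lower in the femur (11% and 24% of all genes). In affected cartilage 42 passed, 1 higher and 41 lower in the femur, against 40.6% of all genes (10.7% higher and 29.9% lower). The median difference was -0.10 without disease and -0.45 with it, where all genes had -0.11 and -0.17. The test of the change between these comparisons is the interaction above, which called no member. The count of 7 higher in non-affected femur fell when single samples were left out. It was 3 without non-affected femoral sample 3 or without non-affected humeral sample 6. It was 4 without non-affected femoral sample 4 or without non-affected humeral sample 3. In the same order, the share of all probe sets called higher fell from 11.6% to 8.02%, 9.17%, 9.51% and 9.52%.

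In non-affected cartilage the direction of the members' median site difference depended on how the arrays were scaled, while in affected cartilage and over both statuses the medians kept their sign. Counted over the 75 probe sets, the calls were 7 higher and 17 lower in non-affected cartilage as deposited (11.6% and 25% of all probe sets), 13 and 10 with arrays centred on their medians (21.3% and 15.7%), and 10 and 12 after quantile normalization (19.8% and 16.2%), with member medians of 0.08 and 0.04. In affected cartilage the calls were 1 higher and 46 lower as deposited (13.9% and 24.6% of all probe sets), 2 and 32 centred (22% and 15.8%), and 3 and 31 quantile normalized (21.6% and 16.2%), with medians of -0.30 and -0.35. The median of all probe sets in non-affected cartilage itself moved from -0.12 to 0.06 and 0.04 under these scalings.

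In complex I, 10 of 33 genes passed in non-affected cartilage, 4 higher and 6 lower in the femur (11% and 24% of all genes). In affected cartilage 21 passed, all lower, against 29.9% of all genes. NDUFB3, a small membrane-arm subunit, fell at the femur in both. It ran from 10.02 over 10.38 to 10.68 in non-affected humerus and read 9.70, 9.31, 9.38 and 9.42 in non-affected femur. Every femoral sample was below every humeral one, with a difference of -0.88 ± 0.15 (limma adjusted p = 0.000416). In affected cartilage it was -0.95 ± 0.15 (adjusted p = 0.000147).

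NDUFC1 differed by -1.16 ± 0.23 and -1.18 ± 0.22 (limma adjusted p = 0.000981 and 0.000524), so that its femoral levels were similarly low with and without disease (8.20 ± 0.25 and 8.08 ± 0.21, SD, n = 4 each). NDUFC2, with which NDUFC1 pairs in the membrane arm, differed by -0.45 ± 0.12 and -0.63 ± 0.11 (adjusted p = 0.00555 and 0.000325). NDUFA5 had the most negative value in non-affected cartilage, -1.39 ± 0.28 (adjusted p = 0.001), and -0.60 ± 0.27 in affected cartilage (0.0807). The assembly factors NDUFAF1 (-0.46 and -0.63) and NDUFAF2 (-0.53 and -0.80) were called lower in the femur in both comparisons, but in non-affected cartilage NDUFAF1 was not called under 5 of 31 alternative settings, nor NDUFAF2 under 9 of 30, both scalings and single left-out samples among them (largest adjusted p 0.173 and 0.12).

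Of the members called higher in non-affected femur, 4 were complex I subunits: NDUFA7 (0.54 ± 0.12, limma adjusted p = 0.0021), NDUFB11 (0.45 ± 0.13, 0.00924), NDUFA3 (0.43 ± 0.15, 0.0327) and NDUFA13 (0.32 ± 0.11, 0.0273). NDUFA7 and NDUFA13 had every femoral above every humeral sample, as did COX7A1, making 3 such members against 6.93% of all genes, and 9 members were below without overlap against 13.6%. None of these 4 was called in affected cartilage, where they differed by 0.24, -0.03, -0.05 and -0.22, although NDUFA7 was called there after centring and after quantile normalization (smallest adjusted p 0.0183). NDUFA7, NDUFB11 and COX7A1 were called in non-affected cartilage under all 31 alternatives. NDUFA3 was not called without any 1 of 5 samples and NDUFA13 without any 1 of 3, with adjusted p of up to 0.0919 and 0.092. Non-affected femoral samples 3 and 4 and non-affected humeral sample 6 were among those for both genes.

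In complex II the genes called between the joints were the membrane anchors, SDHD and SDHC. SDHD ran from 10.89 over 11.10 to 11.25 in non-affected humerus and read 10.80, 10.62, 10.74 and 10.53 in non-affected femur, without overlap (-0.43 ± 0.11, limma adjusted p = 0.00404). In affected humerus it ran from 11.10 over 11.21 to 11.34, against 10.65, 10.09, 10.36 and 10.49 in affected femur. That gap, -0.80 ± 0.10, had the smallest adjusted p of the members in affected cartilage (2.5e-05). With arrays centred on their medians the SDHD difference in non-affected cartilage was -0.25 and was not called (adjusted p = 0.0722).

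SDHC differed by -0.36 ± 0.14 in non-affected (limma adjusted p = 0.0553) and by -0.84 ± 0.14 in affected cartilage (0.000194). The catalytic subunits SDHA and SDHB differed by 0.14 and 0.12 in non-affected and by -0.24 and -0.17 in affected cartilage and were called in neither. In complex III, UQCRB differed by -0.73 ± 0.18 and -0.63 ± 0.18 (adjusted p = 0.00501 and 0.00876), and UQCR10 by 0.18 ± 0.15 and -0.46 ± 0.14 (0.349 and 0.0173).

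CYCS ran from 9.55 over 9.85 to 10.15 in non-affected humerus, above all 4 non-affected femoral samples (8.63 to 9.29), a difference of -0.97 ± 0.21 (limma adjusted p = 0.00191). In affected cartilage the difference was -0.17 ± 0.20 (0.544). ATP5J was alike, with 8.50, 8.98 and 9.17 as the lowest, median and highest in non-affected humerus against 7.93 to 8.11 in the femur. Its difference was -0.92 ± 0.13 in non-affected cartilage (6.72e-05, the smallest adjusted p there) and -0.24 ± 0.12 in affected cartilage (0.136).

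Among the complex IV genes, 2 of 7 were called in non-affected cartilage, against 35% of all genes. Both were muscle forms and both were higher in the femur, as were 11% of all genes. COX7A1 ran from 8.67 over 9.10 to 9.30 in the humerus against 9.45 to 9.73 in the femur, a difference of 0.57 ± 0.14 (limma adjusted p = 0.00554), and in affected cartilage it was -0.20 ± 0.14 (0.274). COX8H differed by 0.47 ± 0.18 (0.0435) and, in affected cartilage, by 0.59 ± 0.17 (0.011), the only member called higher in the femur there. Its call in non-affected cartilage was lost under 9 of 31 alternatives, 8 of which left out 1 sample (largest adjusted p 0.145). In affected cartilage COX5B (-0.66 ± 0.14, 0.00156), COX6C (-0.42) and COX7A2 (-0.45) were called lower.

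The 8 skeletal muscle markers tested had a median femur minus humerus difference of 1.58 in non-affected cartilage, with 8 of 8 higher. In affected cartilage the median was 0.88, with 7 of 8 higher. Called higher were 3 and 1 of the markers, against 11% and 10.7% of all genes. Their mean level was 5.56, 6.27, 8.71 and 7.72 in non-affected and 5.85, 7.91, 7.24 and 7.01 in affected femur, against 5.30 to 6.62 in non-affected humerus and 5.32 to 8.73 in affected humerus, where only sample 8 was high. COX7A1 was 9.61 in the non-affected femoral sample with the highest muscle mean and 9.63 in the one with the lowest. COX8H was 6.02 in the former and 6.34 in the latter. In affected humeral sample 8 COX8H was 6.55, the highest of its group, and COX7A1 was 9.08, the lowest value of its group. The part of muscle tissue in these values was not tested.

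In complex V, ATP5G2 was called higher (0.48 ± 0.17, limma adjusted p = 0.0301) and ATP5J lower in non-affected femur, and the other 11 genes were not called. The ATP5G2 call was lost when any 1 of 6 non-affected samples was left out (femoral 3 or 4, humeral 3, 4, 5 or 6; adjusted p up to 0.102). In affected cartilage 10 of 13 were called, all lower in the femur, against 29.9% of all genes. ATP5F1 ran from 10.87 over 11.17 to 11.36 in affected humerus and read 10.51, 10.31, 10.26 and 10.55 in affected femur, without overlap (-0.75 ± 0.12, adjusted p = 0.00015). ATP5A1 and ATP5B differed by -0.53 ± 0.11 (0.00111) and -0.55 ± 0.14 (0.00518). Of the c-ring genes, ATP5G1 (-0.63) and ATP5G3 (-0.58) were called and ATP5G2 (-0.07) was not. Coupling factor B, ATP5S, was called lower in both comparisons (-0.73 ± 0.14 and -0.82 ± 0.13, adjusted p = 0.00076 and 0.000174).

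Over the whole set 34 members had every affected femoral sample below every affected humeral one, against 16.5% of all genes, and none had the reverse, against 5.67%. Both site comparisons called 11 genes in the same direction, 10 lower and 1 higher (COX8H), 9 were called in non-affected cartilage alone, 31 in affected cartilage alone and 13 in neither. Taken singly, the comparisons called 35% of all genes in non-affected and 40.6% in affected cartilage. How all genes split over these classes was not counted, so the split says nothing particular to the members. Fitted with status as a term, 38 genes were called, 2 higher and 36 lower, against 52% of all genes (15% higher and 37% lower). The smallest p in that fit were those of NDUFB3 (-0.92 ± 0.11, limma adjusted p = 1.7e-06), ATP5S (-0.78 ± 0.09, 3.26e-06) and SDHD (-0.62 ± 0.08, 7.05e-06). In affected cartilage all 8 myeloid markers were also called lower in the femur (median -3.63), against 29.9% of all genes. So were 6 of 7 endothelial (-3.21), 5 of 6 osteoclast (-1.94), 5 of 6 neutrophil (-3.39) and 4 of 7 osteoblast markers (-1.55). Of the same lists, 3 osteoblast, 2 osteoclast and 2 endothelial markers were called lower in non-affected cartilage, against 24% of all genes. In both comparisons 1 endothelial and 1 osteoclast marker were called higher. Of 6 chondrocyte markers, 2 were called higher and 0 lower in affected femur (median 0.20), and 0 higher and 3 lower in non-affected femur (-0.36). Of 4 adipocyte markers, 2 were called higher and 1 lower in both comparisons. Of 5 fibroblast and synovium markers, 3 were called lower in affected cartilage alone, and of 3 erythroid markers 1 in non-affected cartilage alone. The part of these cell types in the result was not tested.

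**Figure D4:**
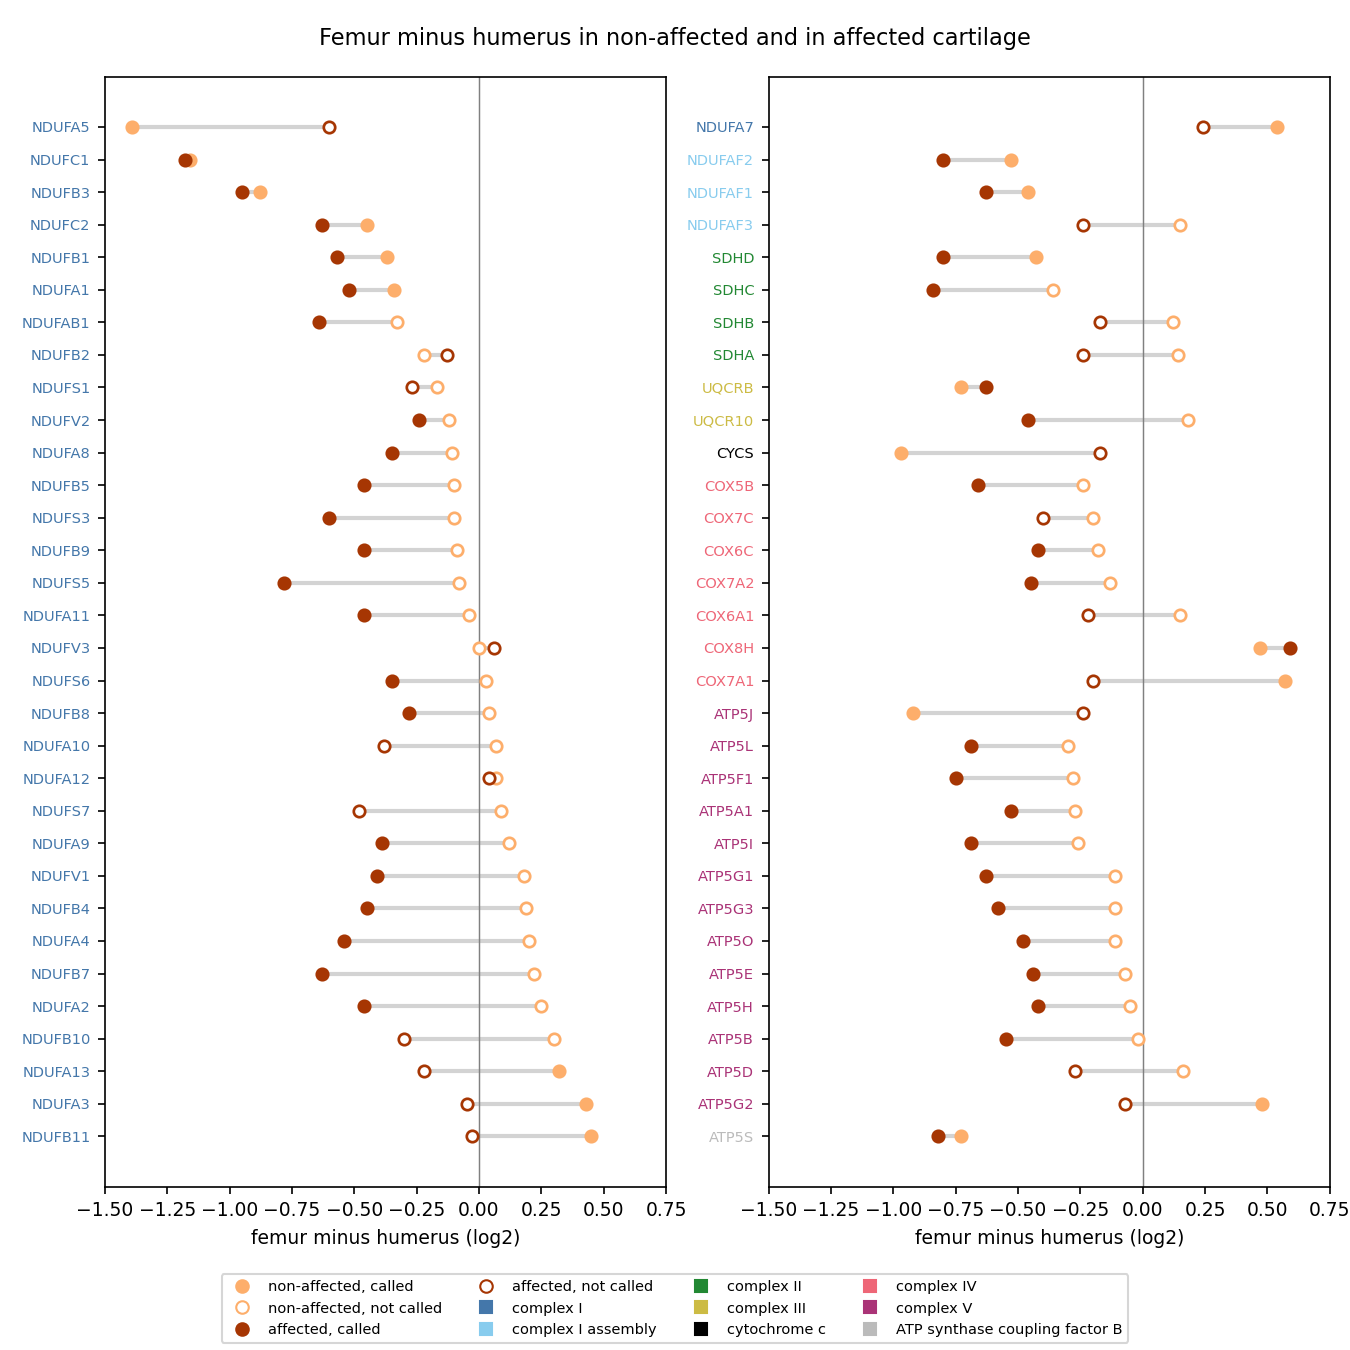
Femur minus humerus log2 difference (horizontal axis) of the 64 genes (vertical axis, coloured by complex) in non-affected (light points) and affected cartilage (dark points); filled points passed an adjusted p of 0.05. Called genes lie on both sides of 0 in non-affected cartilage, 7 above and 13 below, and all but COX8H of the 42 called in affected cartilage lie below 0.

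Within the groups the genes varied together to differing degrees. Taking each of the 21 samples as its deviation from its group mean, 39 of the 64 genes correlated at r over 0.5 with the mean of the other members, 16 lay from 0 to 0.5 and 9 were below 0. These are descriptions, since the values share arrays and their scaling. ATP5L, a small membrane subunit of the ATP synthase, and COX7A2 followed the mean most closely (r = 0.95 each), then NDUFS5 (0.91). COX8H (-0.61), CYCS (-0.55) and NDUFS1 (-0.41) ran most against it. The median r between pairs of genes was 0.59 within complex V, 0.34 within complex I, 0.18 within complex II and 0.15 within complex IV, against 0.30 over all 2016 pairs.

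Of the 3 genes with the highest femoral status differences, CYCS and ATP5J correlated with each other at r = 0.56, ATP5J and NDUFA5 at 0.45, and CYCS and NDUFA5 at 0.26. NDUFS5 and NDUFA4 correlated at 0.93, across the complexes to which their proteins are now assigned. Single samples stood low for many genes at once: affected femoral sample 2 was the lowest of its group for 42 of 64 genes, non-affected femoral sample 5 for 40 and non-affected humeral sample 5 for 34. Affected humeral sample 2 was the highest of its group for 29. Without affected femoral sample 2, 53 of the 64 genes were still lower in affected femur, with a median of -0.18, and without non-affected humeral sample 5 there were 53 higher in affected humerus, with a median of 0.10.

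**Figure D5:**
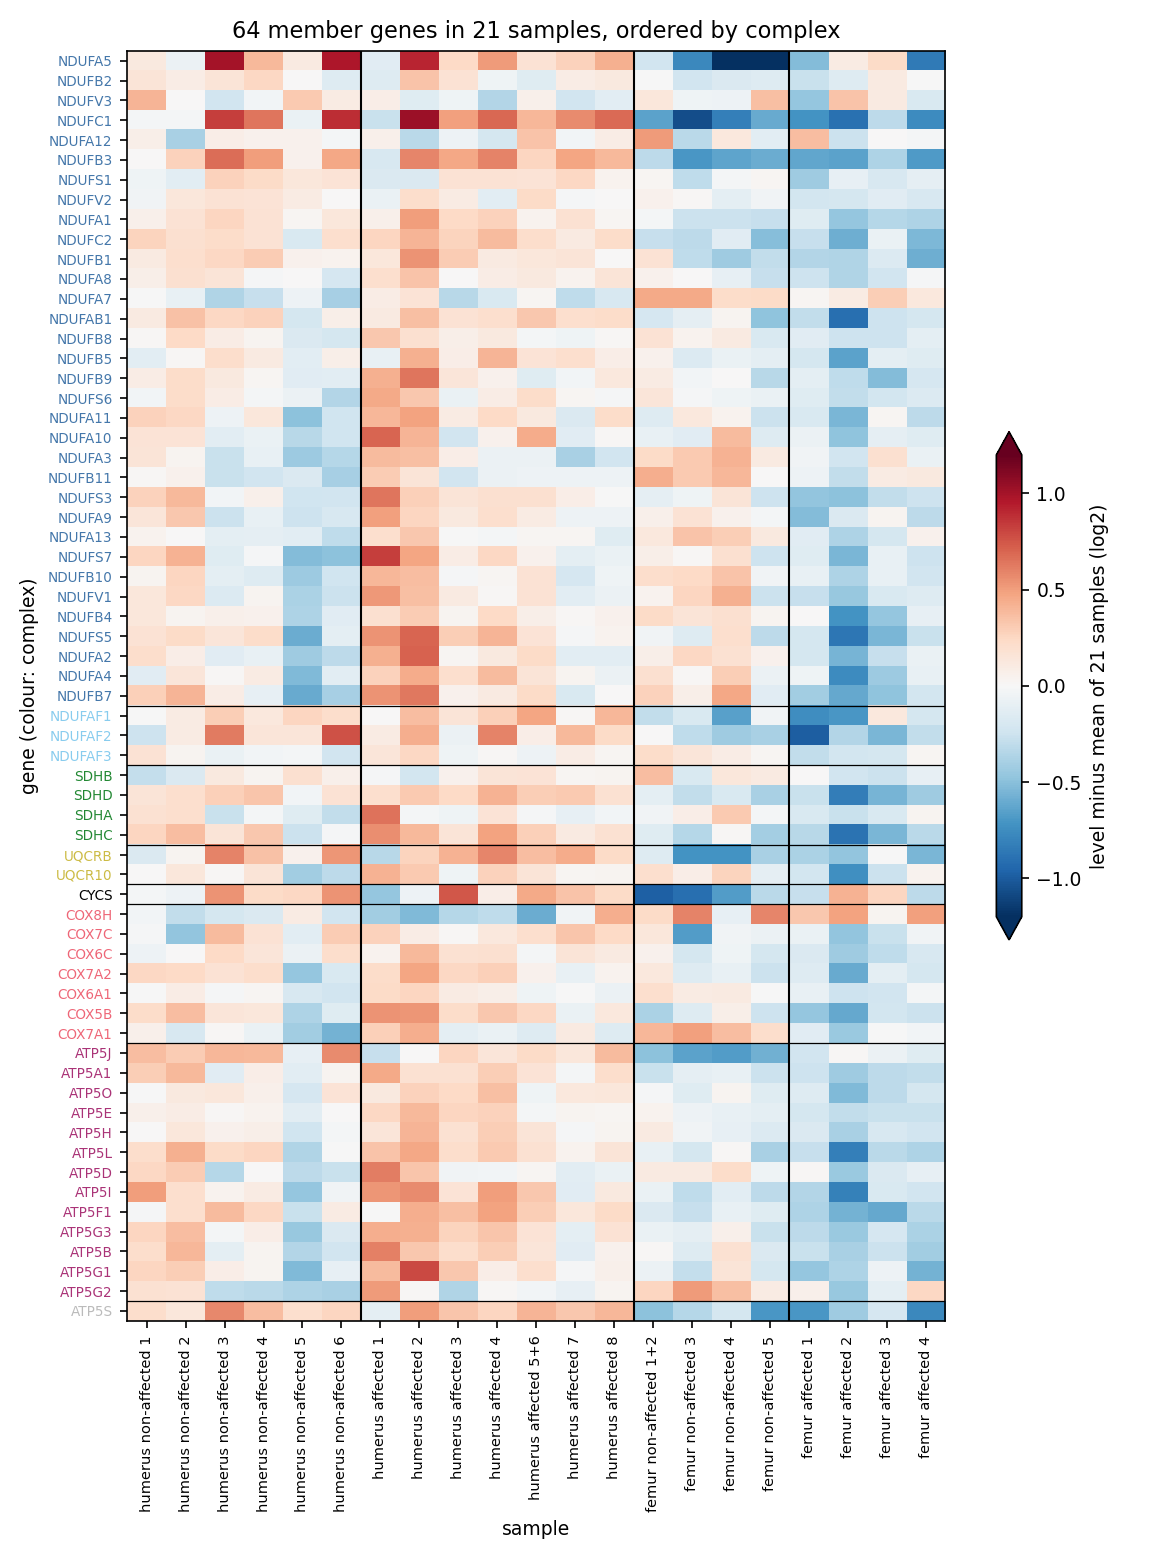
Log2 level of the 64 genes (rows, grouped and coloured by complex) in the 21 samples (columns, grouped by joint and status), each minus the gene's mean over all samples; red is above and blue below. Affected femoral sample 2 is the lowest of its group for 42 genes, and CYCS, ATP5J, NDUFA5, NDUFC1 and NDUFB3 show their lowest values in femoral samples.

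Other probe sets of the same gene did not always agree in sign. The second NDUFA1 probe set differed by 0.27 in the femur where the brightest gave -0.13, and by 0.60 between the joints in affected cartilage where the brightest gave -0.52. In the femur the second probe sets of NDUFS6 (0.57 against -0.20) and SDHB (0.40 against -0.25) and those of NDUFV2 (0.17 and 0.20 against -0.17) also opposed the brightest. None of these opposing values was called. Where the probe sets of a gene were averaged, 50 of 63 genes were lower in affected femur.

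Related mitochondrial genes were read from lists of other pathway members. Of 16 assembly factors and cofactor enzymes tested, 13 were lower in affected femur with a median of -0.18. FOXRED1, an assembly factor of complex I, was the 1 gene called (-0.57 ± 0.13, limma adjusted p = 0.0359), against 1.03% of all genes. Whether FOXRED1 stayed called under the alternative settings was not followed. In those settings the share of all probe sets called for femoral status ran from 0.0238% to 3.7%, against 1.14% here. Between the joints, 6 of the 16 were called in affected cartilage, all lower in the femur, against 29.9% of all genes, among them ATPIF1, the inhibitor that stops the ATP synthase from running backwards (-0.82 ± 0.16, adjusted p = 0.000721). Of 20 genes of the citrate cycle and pyruvate entry, none was called for status in either joint (medians -0.07 in the femur and 0.06 in the humerus).

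Between the joints, 7 of these 20 were called in non-affected cartilage, all lower in the femur, against 24% of all genes, led by SUCLG2 (-1.11) and SUCLA2 (-1.17), subunits of succinyl-CoA ligase. In affected cartilage 11 were called, 10 lower (40.6% and 29.9% of all genes), among them MPC2 of the mitochondrial pyruvate carrier (-1.29 ± 0.21, limma adjusted p = 0.000151). The carriers and porins had 2 of 11 genes called in non-affected and 5 in affected cartilage, all lower in the femur (24% and 29.9% of all genes), led by the ADP/ATP carrier gene SLC25A5 (-0.69 and -0.92).

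Of 6 regulators of mitochondrial biogenesis tested, none was called for status. TFAM, which packages and transcribes mitochondrial DNA, differed by 0.71 ± 0.28 in the femur (limma adjusted p = 0.178) and was called lower in non-affected femur than humerus (-1.04 ± 0.26, adjusted p = 0.00496). The 15 glycolysis genes had the opposite order to most members, with 11 higher in affected femur (median 0.15) and 11 lower in affected humerus (median -0.13), none called. In affected cartilage 5 of them were called higher and 1 lower in the femur (10.7% and 29.9% of all genes), among them PKM, pyruvate kinase (0.68 ± 0.13, adjusted p = 0.000504), and SLC2A1, the glucose transporter GLUT1 (1.56 ± 0.33, 0.00121).

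Of 14 genes that defend against reactive oxygen, 13 were lower in affected femur with a median of -0.30. PRDX5, a mitochondrial peroxiredoxin, was the 1 gene called (-0.73 ± 0.17, limma adjusted p = 0.0418), against 1.03% of all genes. Its call was likewise not followed over the alternative settings. In affected cartilage 9 of the 14 were called lower in the femur, against 29.9% of all genes, led by CAT, catalase (-1.67 ± 0.24, adjusted p = 6.7e-05), and PRDX3 (-0.84 ± 0.12, 7.46e-05). In non-affected cartilage 4 of the 14 were called lower in the femur and 1 higher (24% and 11% of all genes). PRDX3 led those called lower (-0.65 ± 0.13, limma adjusted p = 0.000881). The 1 called higher was PRDX5, at 0.79 ± 0.16 (0.00109), the same order as FOXRED1 (0.60 ± 0.12, 0.00102). As with the members, no gene of these 6 lists was called for status in the humerus.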

How the data were processed

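Levels were read from the deposited table of log2 values, which the authors supplied as 1 value per probe set and array, with a floor of 4. The submitters' processing notes name GCOS 1.1.1, and for the normalization of the arrays no method is given in the sources used here. Total RNA was labelled with biotin, per the labels' protocols. Gene symbols are those of the platform annotation, which can be old. The 124 control probe sets and those with a mean under the 30th percentile (5.299) were left out, and 16799 were tested. limma 3.58.1 in R 4.3.3 (lmFit, eBayes) fitted the 4 group means, with additive fits over both joints or statuses, and p-values were adjusted by Benjamini-Hochberg over all tested probe sets in each comparison, with a call at an adjusted p under 0.05. Sample numbers within a group are names only, with no order. Array pairs of a group whose values differed with an SD under 0.25 were averaged. The numbers of arrays limit the precision. Genes named with values were the 6 members of smallest p in each comparison (3 in the additive fits), the member of smallest p in each complex, tissue-specific isoforms, members that are not subunits, and 2 genes of each pathway list. Others were named after their values were seen. Members, lists and rules were chosen with earlier results of these data known. Marker lists for erythroid cells, adipocytes, osteoblasts, osteoclasts, neutrophils and fibroblasts were also measured. Alternatives were no filter, centred or quantile-normalized arrays, array weights, a variance trend, averaged probe sets, 23 separate arrays, only the groups compared, and each array left out. Tables and plots used Python 3.11.15, numpy 2.4.6, pandas 2.3.3 and matplotlib 3.10.9.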

Additional observations from a re-analysis of the deposited data

Results flagged for a closer look

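Of 160 groups of samples examined over 40 genes or gene sets, 4 held a sample standing apart from the others of its group by Dixon's criterion, where chance marks about 1 in 20. The mean of the complex V genes was 10.38 in affected femoral sample 2, with the next sample at 10.58. UQCRB was 9.95 in affected humeral sample 1, with the next at 10.52, and ATP5S was 6.40 in the same sample, with the next at 6.78. NDUFC2 was 10.12 in non-affected humeral sample 5, with the next at 10.48.

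Several status differences ran in opposite directions at the joints, with each affected sample of the femur below the non-affected mean and each affected sample of the humerus above it. This was seen for the mean of all members (-0.19 in the femur and 0.12 in the humerus) and for the mean of complex II (-0.27 and 0.11), and the difference between the joints was not tested for these means. It was also seen for COX7A1 (-0.53 and 0.24), NDUFA4 (-0.44 and 0.29), NDUFB4 (-0.47 and 0.17) and UQCR10 (-0.40 and 0.24), whose interactions had limma adjusted p-values of 0.101, 0.113, 0.112 and 0.146.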

How the results depend on the processing

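Over 31 alternatives, 23 of which left out 1 array, the 47 pairs of a comparison and a member gene that the naming rule picked for it kept their direction, and 1435 of 1443 values kept their side of the threshold. Of the other 8, 7 passed only under the alternative (6 with 23 separate arrays, 1 without femur affected 1) and 1, SDHD between joints in non-affected cartilage, was not called after centring. Over all 64 genes the site comparisons were less stable: of 42 calls in affected cartilage, 17 were lost under at least 1 alternative, of 20 in non-affected cartilage 10, and of 38 over both statuses 18. Of these 100 calls, 1 changed sign, NDUFA1 in affected cartilage with probe sets averaged (from -0.52 to 0.04, adjusted p = 0.867 by limma). Leaving out 1 array gave 33 to 45 member genes called in affected cartilage, 14 to 23 in non-affected (3 to 7 higher and 11 to 18 lower) and 35 to 39 over both. In those fits the share of all probe sets called also moved, from 32.5% to 40.4%, from 26.2% to 38% and from 48.4% to 53.7%, in that order. After centring, 12 genes were called higher and 7 lower in non-affected femur (21.3% and 15.7% of all probe sets), and after quantile normalization 9 and 9 (19.8% and 16.2%). Counted over probe sets, 23 separate arrays gave 4 calls for status in the femur (3.7% of all probe sets) and 2 for the interaction (1.33%). Leaving out femur affected 1 gave 1 call for status in the femur (2.68% of all probe sets). Centring and quantile normalization moved the median site differences of the members to -0.30 and -0.35 in affected cartilage, to 0.08 and 0.04 in non-affected cartilage and to -0.09 and -0.11 over both. Over both statuses 28 member probe sets were called after quantile normalization (51.4% of all probe sets) against 44 as deposited (51.8%), with 26 called in both fits. Leaving out 1 array at a time gave 0 to 1 calls for status in the femur (0.31% to 2.68% of all probe sets), with medians from -0.26 to -0.18. No paired analysis was possible because the labels share no replicate numbers between groups and do not mark the sib pairs. The joints differed in the hybridisation controls, so no setting separates joint from array handling.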
